A study of Mus musculus with 3 samples.

Results

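The 8 genes described here encode scavenger receptors, the endocytic receptors with which macrophages bind and take up modified lipoproteins, cell debris and danger signals. They were chosen by name as Msr1, Cd36, Marco, Scarb1, Stab1, Cd163, Olr1 and Lrp1, and are 8 of 21631 protein-coding genes, counted over the 19 autosomes and the X chromosome. Foxp3 binding was profiled by CUT&RUN, in which an antibody guides a nuclease to its target and the DNA fragments cut free are sequenced. The cells were mouse bone marrow-derived macrophages (BMDMs), grown from marrow in M-CSF-conditioned medium (M-CSF drives marrow cells to become macrophages) and fixed briefly in 0.1% formaldehyde. The series has 2 libraries made with the Foxp3 antibody (replicates 1 and 2) and 1 library made with an isotype IgG. The peak lists of the Foxp3 libraries were used, and the IgG library was not analysed here, so no value below has an antibody control beside it. The series title names stimulation with danger signals from brain, while the labels give no stimulation, strain, sex or age for any library. Whether separate cultures or animals lie behind the replicates is not in the labels, so the spread between them may be technical. The peak lists hold no expression values, and the macrophage label could therefore not be checked against marker genes.

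Scavenger receptors are grouped into classes by their structure. Msr1 and Marco are collagenous receptors of class A, Cd36 and Scarb1 are class B receptors with an extracellular loop anchored at both ends, and Cd163 is built of cysteine-rich repeats. Olr1 (LOX-1) is a lectin-like receptor, Stab1 (stabilin-1) is a large multidomain receptor, and Lrp1 is a giant member of the LDL receptor family. In mice, Msr1 and Marco have been linked to the removal of danger signals by macrophages that enter the brain after stroke. Foxp3 is a forkhead transcription factor known mainly from regulatory T cells.

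Members were examined over the whole gene and 5 kb beyond both ends, in mm10 coordinates from RefSeq. Peaks lay over all 8 genes in replicate 1 and over 7 of them in replicate 2, with Olr1 the exception. Such windows held a peak of replicate 1 in 96.6% of all protein-coding genes and a peak of replicate 2 in 83.0%. Over all protein-coding genes, 82.7% had peaks of both replicates in such a window, and among the 6161 genes with windows as long as those of the members (35.9 to 117 kb) 94.9% did. In these longer genes a peak of replicate 1 was present in 99.6% and one of replicate 2 in 94.9%. The count for the members, 7 of 8, was near this background and singles out none of them. The 8 windows held 148 peaks of replicate 1 and 31 of replicate 2. Whole lists held 556535 and 95135 peaks, from 33294105 and 34898401 fragments. Fold enrichment, here and below, is the deposited value, the fragments over the summit (the pileup) plus 1 divided by a background term of the same library. Its median was 4.91 over the member peaks of replicate 1, against 4.92 over that list, and 3.74 over the member peaks of replicate 2, against 3.99 over that list. Of the member peaks, 7 in replicate 1 and none in replicate 2 stood in the strongest 5% of their list.

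**Figure D1:**
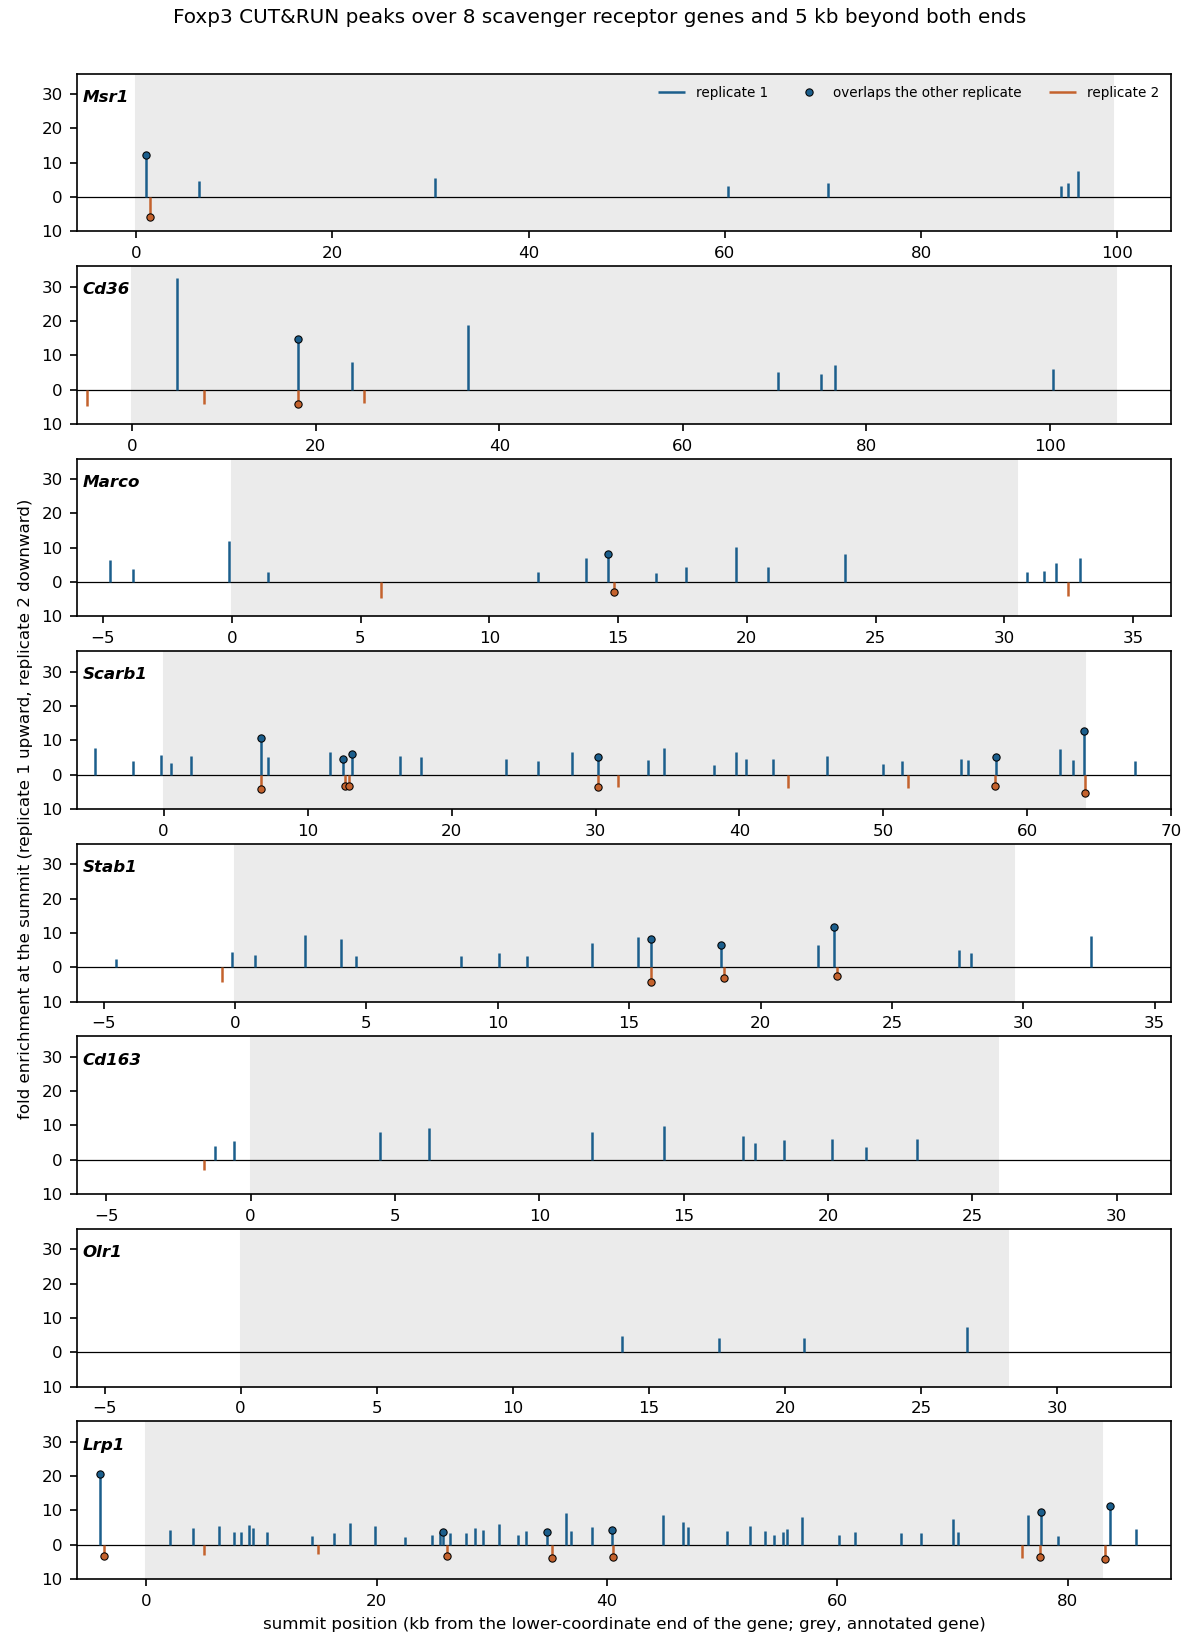
Fold enrichment of every peak over each of the 8 genes and 5 kb beyond both ends, by summit position in kb from the lower-coordinate end of the gene. Replicate 1 points upward, replicate 2 downward, circles mark peaks that overlap one of the other replicate by at least 1 bp, and grey is the annotated gene; Lrp1 has 50 and 9 peaks, Olr1 4 and 0.

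Sites present in both replicates were found in 5 of the 8 genes. Here a pair is a peak of each replicate that overlap by at least 50% of both lengths, and Msr1, Cd36, Scarb1, Stab1 and Lrp1 had such a pair. The share of all protein-coding genes with one was 63.5%, and 77.5% among genes with windows as long. With an overlap of 1 bp, Marco joined them, giving 6 of 8 genes against 75.9% of all genes and 89.1% of those with windows as long. Cd163 and Olr1 had no overlapping peaks. Of the 31 member peaks of replicate 2, 8 were paired by the 50% rule (25.8%, exact 95% interval 11.9 to 44.6%), against 32.9% of that whole list. With 1 bp, 18 of 31 were paired (58.1%, 39.1 to 75.5%), against 53.8% of the whole list. These intervals held the value of the list, but they take each peak as a separate draw. Scarb1 and Lrp1 held 9 each of the 31 peaks, so the intervals are no test of likeness.

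Both replicates had a peak within 1 kb of the annotated start in Lrp1, and within 1 kb of a gene end in Scarb1. Either end was accepted for Msr1 and Scarb1, for which the tables used give no strand, so 2 of the 8 genes met this rule and the start of Scarb1 itself was not located. Over all protein-coding genes 61.5% had peaks of both replicates there, and 74.2% among genes with windows as long. In replicate 1 alone 5 members had such a peak (Msr1, Marco, Scarb1, Cd163 and Lrp1), against 83.0% of all genes and 89.4% of those with windows as long. Msr1 met the rule at its lower-coordinate end only, and whether that end is its start was not known. In replicate 2 alone it was the same 2 members, Scarb1 and Lrp1, against 62.7% and 75.1%. Most member peaks lay inside the genes. In replicate 1, 125 of 148 summits (84.5%, exact 95% interval 77.6 to 89.9%) were inside and more than 1 kb from either end, against 75.3% over the windows of all protein-coding genes. In replicate 2 it was 24 of 31 (77.4%, 58.9 to 90.4%), against 61.3%. Summits within 1 kb of an end numbered 10 in replicate 1 (6.76%, 3.29 to 12.1%), against 10.7% over all windows, and 3 in replicate 2 (9.68%, 2.04 to 25.8%), against 24.6%. Lrp1 and Scarb1 held 50 and 32 of the 148 peaks of replicate 1, and 9 each of the 31 of replicate 2. These intervals take each peak as a separate draw, so they are no test of a difference from all windows. Shares over all windows pool peaks, each counted once for every window it lies in, so windows with many peaks weigh more. By gene, the members' windows were longer, with a median of 57.2 kb against 27.3 kb, which leaves a smaller part near an end. These medians are not the lengths behind the pooled shares, and the part of length in them was not tested.

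Sequences of 3 start regions are shown because they span the range of base composition and peak cover among the members. They are from RefSeq (GRCm38.p6, the coordinates of mm10), 250 bases before to 50 after the start, 5′ to 3′ on the strand of the gene. Capitals in Lrp1 mark the 98 bases that lie under the peaks of both replicates, and capitals in Olr1 mark a match to the AP-1 word TGANTCA. The Cd163 region has no match and no peak.
Lrp1, chr10:127621099-127621398, minus strand: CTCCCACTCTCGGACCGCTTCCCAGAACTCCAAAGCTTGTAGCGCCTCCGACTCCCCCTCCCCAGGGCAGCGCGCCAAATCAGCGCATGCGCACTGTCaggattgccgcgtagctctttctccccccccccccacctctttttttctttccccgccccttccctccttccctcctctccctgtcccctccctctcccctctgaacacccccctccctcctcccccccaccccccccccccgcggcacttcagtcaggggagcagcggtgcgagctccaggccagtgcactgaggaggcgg
Olr1, chr6:129507116-129507415, minus strand: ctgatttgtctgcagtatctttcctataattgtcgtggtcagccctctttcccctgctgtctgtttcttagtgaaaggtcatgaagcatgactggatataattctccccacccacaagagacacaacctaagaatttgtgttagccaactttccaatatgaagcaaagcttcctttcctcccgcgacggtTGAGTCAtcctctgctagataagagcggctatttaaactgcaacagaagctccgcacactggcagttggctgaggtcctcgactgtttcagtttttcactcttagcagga
Cd163, chr6:124304401-124304700, plus strand: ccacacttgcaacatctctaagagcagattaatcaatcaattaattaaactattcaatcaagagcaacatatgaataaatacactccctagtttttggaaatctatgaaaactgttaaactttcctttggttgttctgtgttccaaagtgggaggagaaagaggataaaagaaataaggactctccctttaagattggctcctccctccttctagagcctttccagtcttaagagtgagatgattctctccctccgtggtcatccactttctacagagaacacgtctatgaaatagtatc

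The table of start regions held 6 of the 8 members, and Msr1 and Scarb1 are named only. The start region of Lrp1 was the richest of the 6 in G and C (67.7%) and in CpG dinucleotides (16), and the only one under a peak in either replicate. Stab1 and Olr1 had 7 CpG each, Cd36 had 3, Cd163 had 2 and Marco had 0, and none of these 5 regions was overlapped by a peak. The median over 32851 start regions was 7 CpG and 52.7% G and C. Of 4 words searched on both strands, the forkhead word TGTTTAC was in none of the 6 regions and in 3.65% of all regions. The PU.1 word AGGAAGT (9.35% of all regions) and the E-box CACGTG (7.15%) were also in none of the 6. The AP-1 word TGANTCA (7.81%) was in Olr1. No match says only that these letters are not in this window.

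Among the class A receptors, Msr1, a main receptor for modified LDL, had few peaks and a single pair. Msr1 (gene ID 20288) spans chromosome 8 from 39543232 to 39642750. Its window held 8 peaks of replicate 1, with fold enrichments from 3.17 to 12.2, and 1 of replicate 2. The strongest peak of replicate 1 (chr8:39544105-39544861) and the peak of replicate 2 (chr8:39544296-39544734) overlapped over 439 bp, with summits 1022 and 1402 bp inside the lower-coordinate end. Replicate 1 gave a fold enrichment of 12.2 and 45 fragments, replicate 2 gave 5.89 and 29 fragments (mean fold 9.03 ± 4.44, SD, n = 2). Of each list, 95.5% and 89.9% of peaks had an equal or lower fold. This was the highest fold among the member peaks of replicate 2. The summits of the Msr1 pair were 380 bp apart, the widest of the 8 pairs by the 50% rule, and with summits required to lie within 100 bp Msr1 had no pair and 4 members did (53.2% of all genes). The other 7 peaks of replicate 1 had pileups of 11 to 28 fragments, and the one next in strength, with a fold of 7.67, lay 3561 bp inside the higher-coordinate end.

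Marco, which binds bacteria and particles, had 16 peaks of replicate 1 and 3 of replicate 2 over a gene on chromosome 1 from 120474538 to 120505024 (gene ID 17167). The strongest of replicate 1 (fold enrichment 12.0, pileup 56) had its summit 93 bp outside the lower-coordinate end, opposite to the start, and replicate 2 had no peak there. The single overlap lay in the middle of the gene, between chr1:120488918-120489310 of replicate 1 and chr1:120489199-120489467 of replicate 2. It reached 28.5% of the longer peak and 41.6% of the other. Its fold was 8.16 in replicate 1 and 2.95 in replicate 2, and 7.22% of the replicate 2 list had an equal or lower fold, so it stood near the lower limit of what was called. The strongest peak of replicate 2, at chr1:120480273-120480495 (fold 4.71, 23 fragments), had no partner in replicate 1. The nearest summits to the start of Marco were 409 bp before it in replicate 1, at a fold of 2.99, and 1980 bp before it in replicate 2, at 4.12.

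Among the class B receptors, Cd36, a receptor for oxidised LDL and long-chain fatty acids, carried the strongest peak of the 8 genes, in replicate 1 only. Cd36 (gene ID 12491) spans chromosome 5 from 17781690 to 17888959. The peak at chr5:17786164-17787144 had a pileup of 183 fragments and a fold enrichment of 32.6, rank 116 of 556535 in its list. Replicate 2 had no overlapping peak, and its nearest one, at chr5:17789318-17789509, had 20 fragments and a fold of 4.12. A replicate 2 value below the calling limit cannot be read from a peak list, whose smallest called pileup was 13 fragments. A second strong peak of replicate 1, at chr5:17818076-17818413 (fold 18.8, pileup 70), also had none beside it in replicate 2. The pair of Cd36 lay between these, at chr5:17799202-17800062 in replicate 1 and chr5:17799107-17800046 in replicate 2, with summits 19 bp apart. Replicate 1 gave a fold of 14.9 and 64 fragments, replicate 2 gave 4.12 and 20 fragments (mean fold 9.49 ± 7.59, SD, n = 2). All 3 sites lay beyond the annotated start site, at 17835896 on the minus strand, in the direction of transcription, 49338, 17669 and 36170 bp from it in the order given. The annotated gene extends past this start to 17888959, and no further start regions were examined. The remaining peaks of replicate 2 had no partner either, one inside the gene at chr5:17806908-17807165 with a fold of 3.93, and one at chr5:17776658-17776943 with 4.91, its summit 4904 bp outside the lower-coordinate end.

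Scarb1, the receptor for HDL through which cells take up cholesteryl esters, was the member with the most repeated sites together with Lrp1. Scarb1 (gene ID 20778) spans chromosome 5 from 125277087 to 125341094, and held 32 peaks of replicate 1 and 9 of replicate 2, of which 6 pairs overlapped and 3 met the 50% rule. The strongest peaks of both replicates were the same site at the higher-coordinate end, at chr5:125340732-125341355 in replicate 1 and chr5:125340422-125341244 in replicate 2. Its summits lay 84 and 4 bp inside that end, with a fold of 12.8 and 88 fragments in replicate 1 and 5.46 and 36 fragments in replicate 2 (mean fold 9.12 ± 5.18, SD, n = 2). No other pair by the 50% rule had both summits within 1 kb of the end of a member gene. A second pair lay 6749 bp inside the lower-coordinate end by the summit of replicate 1 (chr5:125283672-125284115), with folds of 10.7 and 4.27 and summits 25 bp apart. The third, at chr5:125307169-125307319 in replicate 1, had summits 1 bp apart and folds of 5.09 and 3.66, and lay also inside the lncRNA gene Gm32701. The other 3 overlaps had folds of 4.69 to 5.91 in replicate 1 and 3.17 to 3.30 in replicate 2. In replicate 2 they were at chr5:125289592-125289784, chr5:125289968-125290225 and chr5:125334808-125335220. The remaining peaks of replicate 2, at chr5:125308514-125308816, chr5:125320340-125320624 and chr5:125328653-125328880, had no partner and folds of 3.51, 3.90 and 3.74.

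Stab1, a receptor of tissue macrophages and sinusoidal endothelium for matrix fragments and dying cells, had 18 peaks of replicate 1 and 4 of replicate 2. The gene (gene ID 192187) spans chromosome 14 from 31139017 to 31168651, and its lower-coordinate end overlaps the end of Nt5dc2 by 108 bp. The single pair by the 50% rule lay inside the gene, at chr14:31154740-31154982 in replicate 1 and chr14:31154726-31154938 in replicate 2. Its summits were 11 bp apart, and replicate 1 gave a fold of 8.31, replicate 2 one of 4.24 (mean 6.27 ± 2.88, SD, n = 2). The strongest peak of replicate 1, at chr14:31161720-31161930 with a fold of 11.8 and 117 fragments, overlapped one of the weakest peaks of replicate 2, with a fold of 2.70 and 19 fragments. Of the replicate 2 list, 0.958% had an equal or lower fold. That peak lies within 1 kb of the lncRNA gene Gm52148. A further overlap, at chr14:31157349-31157611 in replicate 1 and chr14:31157520-31157725 in replicate 2, covered 92 bp, with folds of 6.46 and 3.18. The peak of replicate 2 at the shared end, chr14:31138119-31138584 (fold 4.23), lay within Nt5dc2, and a peak of replicate 1 above the gene with a fold of 9.20 lay within Nisch, so neither could be assigned to Stab1. The nearest summit to the start of Stab1 was 1599 bp away in replicate 1 and 6278 bp away in replicate 2.

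Cd163, the macrophage receptor for haemoglobin bound to haptoglobin, had 12 peaks of replicate 1 and 1 of replicate 2, none of them shared. It spans chromosome 6 from 124304636 to 124330529 (gene ID 93671). The peaks of replicate 1 had folds from 3.70 to 9.93 and a median of 6.08, the highest being inside the gene at chr6:124318868-124319087, within the lncRNA gene Gm52877. The peak of replicate 2 lay 1642 bp before the start, at chr6:124302852-124303163, with 15 fragments and a fold of 3.14. Beside it, without overlap, lay a peak of replicate 1 at chr6:124303264-124303555, with its summit 1229 bp before the start, 14 fragments and a fold of 3.97. The peak of replicate 1 nearest to the start had its summit 577 bp before it, with 20 fragments and a fold of 5.55. Both lie within 1 kb of the small nucleolar RNA gene Gm25311. The peak of replicate 2 is the only one behind the count of Cd163 among genes with peaks of both replicates. That call ended without flanks, with 1 kb flanks and with −log10 q of at least 5. Each left 6 members, while 75.1%, 77.4% and 77.4% of all genes had peaks of both replicates.

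Olr1, the lectin-like receptor for oxidised LDL, was the member with the fewest peaks. It spans chromosome 6 from 129479150 to 129507350 (gene ID 108078). Replicate 1 had 4 peaks, with pileups of 15 to 27 fragments and folds from 4.23 to 7.41, and the strongest (chr6:129505772-129505931) lay 1314 bp inside the gene from its start. The other 3 lay also within the lncRNA gene Gm45969. Replicate 2 had no peak in the window, and its nearest summit was 26418 bp from the start, outside the gene. Sites under the calling limit would not be listed, so their absence from the list does not show that none were there.

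Lrp1, which takes up apolipoprotein E, protease complexes and calreticulin-marked cells, had the most peaks of the 8. Lrp1 (gene ID 16971) spans chromosome 10 from 127538157 to 127621148, and held 50 peaks of replicate 1 and 9 of replicate 2. Upstream of the start, which is the higher-coordinate end at 127621148, lay chr10:127621301-127622211 in replicate 1 and chr10:127621279-127621458 in replicate 2. Neither peak reaches the start itself, and their overlap includes the stretch printed in capitals above. The site had a fold of 11.3 and 70 fragments in replicate 1, and of 4.04 and 27 fragments in replicate 2 (mean fold 7.69 ± 5.16, SD, n = 2). This overlap of 158 bp was 87.8% of the replicate 2 peak and 17.3% of the longer replicate 1 peak, and the summits lay 668 and 220 bp before the start, so this site did not meet the 50% rule. The 2 pairs that did were inside the gene, one with the summit of replicate 1 lying 5312 bp from the start (chr10:127615708-127615903, folds of 9.42 and 3.47) and one at 42569 bp (chr10:127578041-127578795, folds of 4.25 and 3.69). The second had near equal folds in the replicates, with a mean of 3.97 ± 0.401 (SD, n = 2). Further overlaps deep in the gene, at chr10:127563950-127564368 and chr10:127572666-127573403 in replicate 2, had folds of 3.62 and 3.78 in replicate 1 and of 3.23 and 3.78 in replicate 2. The strongest peak of the window, with a fold of 20.6 and 177 fragments in replicate 1 and 3.24 and 24 fragments in replicate 2, lay 4036 bp beyond the other end by the summit of replicate 1 (chr10:127533910-127534601). It overlapped Nxph4, a neurexophilin gene, and could not be assigned to Lrp1. Without peaks over other protein-coding genes, the highest fold of Lrp1 in replicate 1 was 11.3. The peaks of replicate 2 with no partner were at chr10:127543144-127543330, chr10:127553038-127553302 and chr10:127614148-127614358, with folds of 2.98, 2.55 and 3.94.

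Replicate 1 had more fragments over the summit at each of the 18 overlapping member sites. The ratio of replicate 1 to replicate 2 pileup ran from 1.11 to 7.38 with a median of 2.36, and was 1.35 to 3.20 over the 8 pairs of the 50% rule. Over all 53659 overlaps of at least 1 bp, replicate 1 was higher in 77.1% and the median ratio was 1.57. Over all 31253 pairs of the 50% rule, replicate 1 was higher in 81.3% and the median ratio was 1.67. Replicate 2 was the library with more fragments in all. The summits of the 8 pairs were a median of 52.5 bp apart, against 71.0 bp over all pairs.

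**Figure D2:**
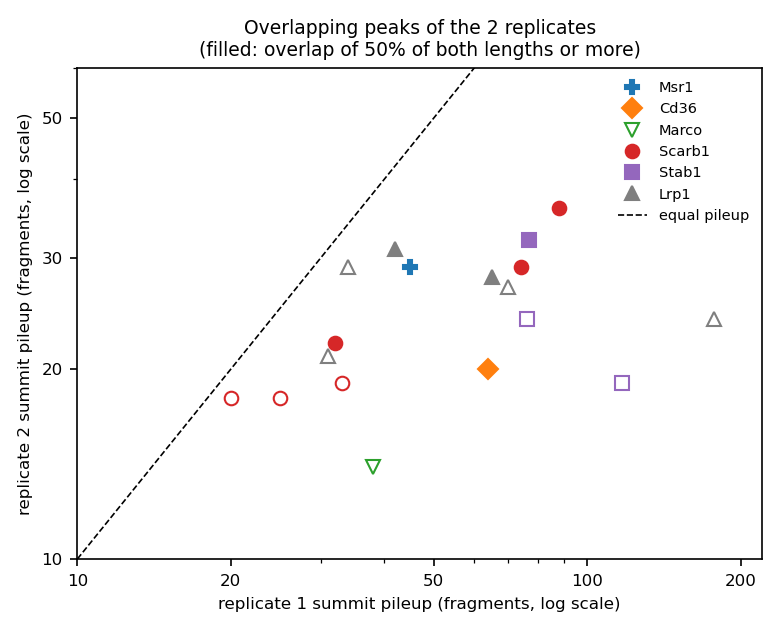
Summit pileup of the 18 overlapping peak pairs over the members, replicate 1 across and replicate 2 up, both on log scales. Filled symbols meet the rule of 50% of both lengths, open symbols overlap by at least 1 bp, and every point lies right of the dashed line of equal pileup.

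Peak density divided the members. In replicate 1, Lrp1 had 5.38 peaks per 10 kb, Stab1 4.54, Scarb1 4.32, Marco 3.95 and Cd163 3.34, against a median of 3.06 over all protein-coding genes. Olr1 had 1.05, Msr1 0.730 and Cd36 0.682, and 13.0%, 6.58% and 6.02% of all genes had an equal or lower density. In replicate 2, Scarb1 had 1.22, Stab1 1.01, Lrp1 0.968 and Marco 0.741, against a median of 0.616, while Cd36 had 0.341, Cd163 0.279, Msr1 0.0913 and Olr1 none. The 3 sparse genes of replicate 1 thus lay below the median in replicate 2 as well, and Cd163 stood above it in replicate 1 and below it in replicate 2. Density in the 500 kb beyond each window was also low around Msr1, Cd36 and Olr1, at 1.07, 1.11 and 1.32 peaks per 10 kb in replicate 1. Around the other 5 it was 2.30 to 4.77.

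**Figure D3:**
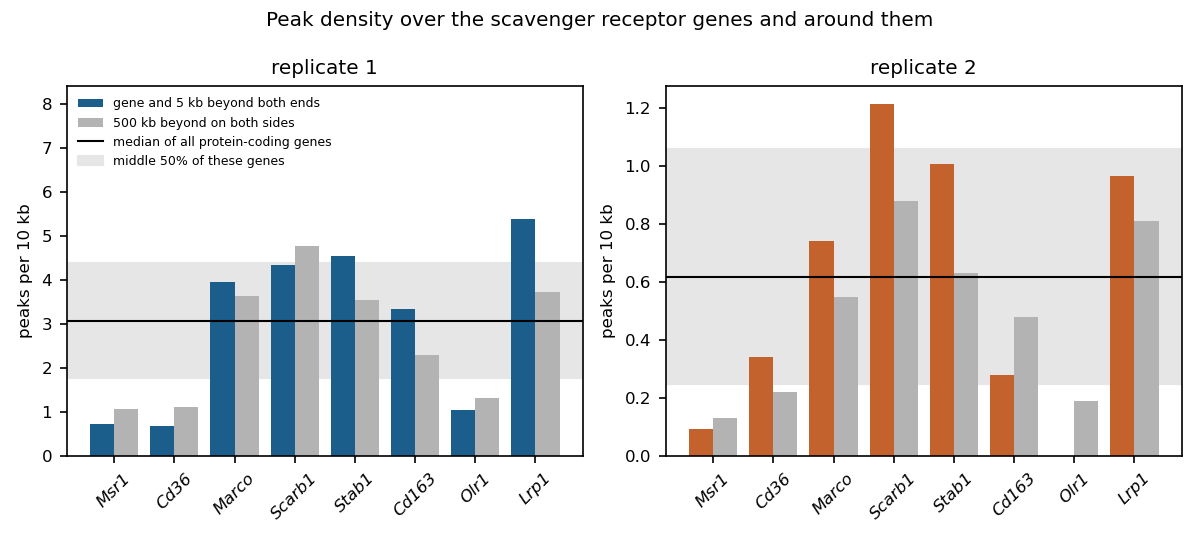
Peaks per 10 kb over each gene with its 5 kb flanks (coloured) and in the 500 kb beyond them on both sides (grey bars), in replicate 1 (left) and replicate 2 (right). The line is the median of all protein-coding genes and the band their middle 50%; Msr1, Cd36 and Olr1 lie below the band in replicate 1, and their surroundings were low too.

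The background term behind the fold enrichments also differed between members. It is pileup plus 1 over fold, and so holds any constant that the caller added to the background. In replicate 1 the background term was at the lowest value of the library, 3.78 fragments, for every peak of Msr1 and Olr1, and in replicate 2, at 5.09, for every peak of Msr1, Cd36, Marco and Cd163. Over Stab1 it averaged 10.4 in replicate 1 and 8.19 in replicate 2, over Lrp1 8.03 and 8.04, and over Scarb1 5.98 and 6.44. Medians over all protein-coding genes were 4.59 and 5.68. A given fold thus stood for more fragments in Stab1 and Lrp1 than in Msr1: 45 fragments gave a fold of 12.2 at Msr1, and 117 fragments gave 11.8 at Stab1. Ranks of fold between members therefore differ from ranks of pileup. Folds of the 2 replicates are not on 1 scale either. At the lowest background of each library, 20 fragments gave 5.55 at an Msr1 peak of replicate 1 and 4.12 at a Cd36 peak of replicate 2. The means and SDs of fold given above include this difference. At the peak of highest fold of each gene in replicate 1, pileup was 183 at Cd36, 177 at Lrp1, 117 at Stab1, 88 at Scarb1, 56 at Marco, 45 at Msr1, 37 at Cd163 and 27 at Olr1. Without the peak over Nxph4 the value of Lrp1 was 70, below Stab1 and Scarb1.

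**Figure D4:**
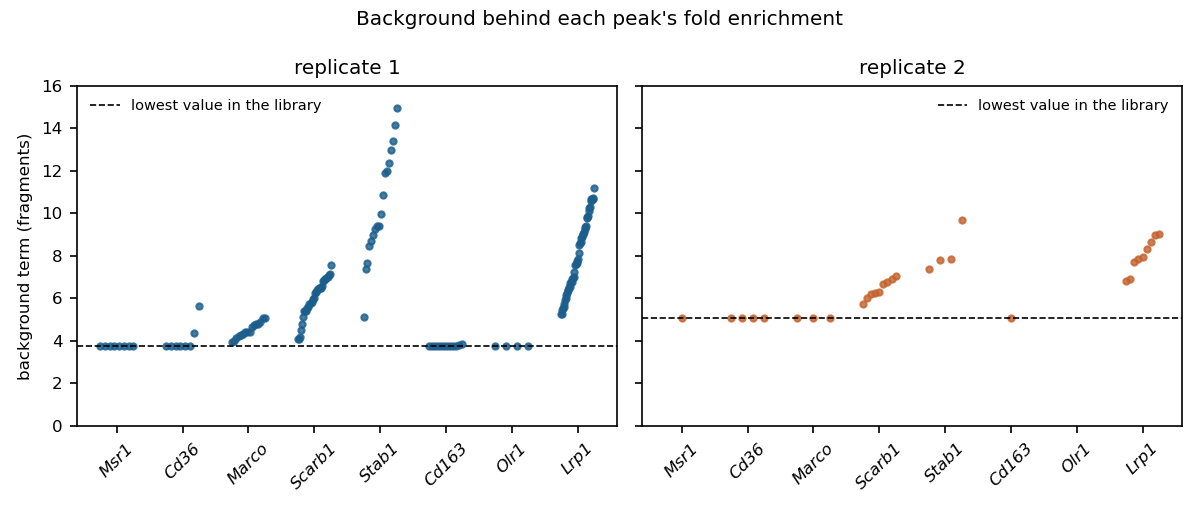
Background term, in fragments, behind the fold enrichment of each member peak, in replicate 1 (left) and replicate 2 (right); within a gene, points are spread sideways from low to high. The dashed line is the lowest value in each library, on which all peaks of Msr1 lie in both replicates, and Stab1 reaches 14.9 in replicate 1.

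Related receptors outside the 8 were counted the same way. Of 19 other scavenger receptor genes, 18 had peaks of both replicates in the window, 16 had a pair by the 50% rule and 10 had both replicates within 1 kb of the start. As shares these are 94.7%, 84.2% and 52.6%, against 82.7%, 63.5% and 61.5% of all protein-coding genes. Genes with a pair were ordered by the mean list percentile of their strongest peak in the replicates. The values given with each are the folds of that peak, not percentiles. The first 3 were Megf11 (fold of 20.2 in replicate 1 and 6.44 in replicate 2), Ssc4d (25.1 and 6.22) and Scarb2 (14.0 and 6.23). Scarb2 encodes the lysosomal membrane protein LIMP-2. Of 11 genes of the LDL receptor family and its chaperone Lrpap1, all 11 had peaks of both replicates, 10 had a pair and 9 had both within 1 kb of the start, and the last 2 counts are 90.9% and 81.8%. By the same order Vldlr, the receptor for VLDL and reelin, came first with folds of 18.8 and 8.67. It was followed by Lrp1b (28.4 and 6.48) and Lrp4, an agrin receptor of the neuromuscular junction (11.6 and 7.63). Lrp6, a Wnt co-receptor, had folds of 17.4 and 9.08 and was left out of this order because it had no pair. Among the 8 genes the counts were 7, 5 and 2, and over all genes with windows in the members' length range the shares were 94.9%, 77.5% and 74.2%. The windows differ widely in length, such as 24316 bp for Ssc4d and 2068309 bp for Lrp1b, and no test of these counts was made.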

How the data were processed

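Peak lists of 2 Foxp3 CUT&RUN libraries were used. The submitters' processing notes name CASAVA 1.4 and mm10. Which aligner was run is not given in the sources used. Per the file headers, the authors called peaks on each library alone with MACS 2.1.1.20160309, paired-end, at a q-value cutoff of 0.01, with no control and all duplicates kept, so the lists can hold sites that an isotype antibody would also give, and PCR copies add to a pileup. The deposited pileup is a signal in fragments over the summit, with no depth scaling. Fold enrichment as deposited is a ratio to a background from the same library, genome-wide or over 10000 bp, whichever is higher. Significance was deposited as −log10 of p and q values.

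Genes came from a RefSeq table of GRCm38.p6. The background term was computed as pileup plus 1 over fold, and a constant added to the background by the caller was not taken off. Intervals are exact binomial (Clopper-Pearson) and cover counting error only. They take peaks as independent, although many lie in the same gene. With 2 libraries of 1 group, no test was made. Overlap code was tested on simulated data. The smallest called pileup was 10 fragments in replicate 1 and 13 in replicate 2. The members, the lists, the rules and the alternatives were chosen with earlier results of these data known. Named were all 8 members and the 3 genes of each further list with the highest mean fold percentile among those with a pair. Of the 19 other scavenger receptors, Scart1 and Scart2 were matched through older names. Python 3.11.15, pandas 2.3.3 and SciPy 1.17.1 were used.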

Additional observations from a re-analysis of the deposited data

How the results depend on the processing

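Of 38 recomputed counts, 32 stayed within 1.5 times the reported one. That limit is wide for counts of at most 8 genes, because a count of 7 cannot rise past it. Gene counts without 1 replicate only repeat the counts of the other replicate given above. The tally is therefore no measure of robustness. None of 58 recomputed strongest folds of the members moved by more than 1 SD of a gene's strongest folds in the 2 replicates. That SD is a weak yardstick, because replicate 1 folds were far above those of replicate 2, such as 32.6 against 4.91 at Cd36. Olr1, with folds of 1 replicate only, had no SD, and its fold did not move. Cd163 in replicate 2 had no peak left without flanks or with 1 kb flanks, and is not among the 58 there. For Lrp1 in replicate 1 the strongest fold of 20.6 became 9.42 without flanks, which that wide SD still held. Peaks of replicate 2 numbered 47 with 20 kb beyond both ends and 19 with −log10 q of at least 5, by construction of a wider window and a stricter list. Replicate 1, restricted to as many peaks as replicate 2 holds, had 27 peaks over the members when ranked by fold and 36 when ranked by −log10 q. Genes with start-site peaks, with either end accepted for Msr1 and Scarb1, numbered 5 within 5 kb of the start (74.4% of all genes). They numbered 2 without replicate 1 (62.7% of all genes) and 5 without replicate 2 (83.0%). Genes with peaks in the window numbered 7 without replicate 1 (83.0% of all genes) and 8 without replicate 2 (96.6%). They numbered 6, without Cd163, with no flanks (75.1% of all genes), with 1 kb flanks (77.4%) or with −log10 q of at least 5 (77.4%). With summits within 100 bp as the pairing rule 4 genes had a pair (53.2% of all genes), without Msr1. Leaving out peaks over other protein-coding genes, an alternative chosen after seeing the data, gave 144 and 29 peaks. Pairs could not be recomputed from 1 replicate, and counts of peaks of 1 replicate were not recomputed without the other. No paired analysis was possible because values of 1 group only, the Foxp3 libraries, were analysed. The lists end at the smallest called pileup, 13 fragments in replicate 2 and 10 in replicate 1, although replicate 2 held more fragments. The lowest background term was also higher in replicate 2, at 5.09 against 3.78. The fragment size determined by the caller was 180 bp in replicate 2 and 130 bp in replicate 1. What sets the limit was not tested.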
